A study of Mus musculus with 19 samples.

Results

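Transcript levels of 8 growth-linked chromatin and RNA-binding genes were followed in 19 single mouse embryos: Hmga2, Hmga1, L1td1, Lin28a, Lin28b, Igf2bp1, Igf2bp2 and Igf2bp3. The 8 genes were taken by symbol from the 53379 gene rows of the deposited count table. All 8 passed the filter on low values that left 18410 genes for testing. The set was chosen by the low measured values of Hmga2 and L1td1 in Alyref KO morulae, so the values of all 8 genes in that comparison are given as a description, without a test.

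The study compared embryos lacking Alyref, which encodes an mRNA export adaptor, or Gabpb1, which encodes a subunit of the ETS-family transcription factor GABP, with other embryos of the same crosses. Oocytes and sperm of Alyref+/- or of Gabpb1+/- mice were joined by in vitro fertilisation, the B6D2F1 embryos were grown at 37 °C in KSOM medium with 5% CO2, and morulae and blastocysts were taken 96 hours after insemination. Each embryo was lysed alone and received ERCC spike-in RNA before reverse transcription. Its polyA cDNA was amplified over 16 PCR cycles and read in pairs of 50 and 25 bases. The Alyref cross gave 2 morulae labelled KO (Alyref-/-), 3 other morulae and 3 blastocysts. From the Gabpb1 cross came 3 morulae labelled KO (Gabpb1-/-), 2 other morulae and 3 blastocysts. Another 3 blastocysts came from wild-type (WT) B6D2F1 parents. No blastocyst was labelled KO. An embryo was labelled KO because its own library lacked reads over the deleted stretch, so that label and the expression values come from the same reads. The other embryos of the heterozygous crosses are WT or heterozygous and are called non-KO here. All embryos had the same age, so a morula here is an embryo that had not formed a blastocyst by 96 hours. The labels do not say which embryos shared parents or a fertilisation, so p-values measure the spread between these embryos only. Each cross had its own parents, and a batch effect cannot be told apart from the cross.

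Totals over genes ran from 7.49 M to 31.5 M counts (M, the SI prefix mega) per embryo, with a median of 13.6 M, and ERCC counts made up 0.501% to 1.95% of the total. Alyref stood at 53.1 ± 7.57 CPM (counts scaled to a common library size; SD, n = 2) in its KO morulae, and the 3 non-KO morulae of the Alyref cross had 221 ± 65.6 CPM (SD, n = 3). Its log2 fold change was -2.05 (SE 0.30, edgeR quasi-likelihood adjusted p = 0.0227). The KO label rests on missing reads in these same libraries, so this test is not independent of the label. The adjusted p was 0.140 and 0.151 without KO morula 1 or 2, 0.0650 without non-KO morula 1, 0.893 after scaling by ERCC counts and 0.559 with the 2 groups fitted alone, while the log2 fold change stayed between -2.23 and -1.91 in these fits. Gabpb1 did not go down in its labelled KO morulae, at 163 ± 91.2 CPM (SD, n = 3) against 88.6 ± 7.46 CPM (SD, n = 2), with a log2 fold change of 0.88 (adjusted p = 0.243). That value was 1.21 and called higher without labelled KO morula 1 (adjusted p = 0.0486), 0.36 without labelled KO morula 2 and 0.017 with ERCC scaling. Counts per gene do not resolve the deleted part, and these embryos are therefore called morulae labelled Gabpb1 KO throughout. Markers of cumulus cells (10 genes, none of which passed the filter) summed to at most 3.63 CPM in any embryo and those of sperm (8 genes) to at most 3.01 CPM.

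The genes form a known circuit of early and growing cells. Lin28a and Lin28b are RNA-binding proteins that block the maturation of the microRNA let-7, and let-7 in turn represses the mRNAs of Lin28, Hmga2 and the Igf2bp genes through sites in their 3′ untranslated regions (UTRs). Hmga1 and Hmga2 are AT-hook proteins that bend DNA and shape chromatin, Igf2bp1 to Igf2bp3 bind and stabilise mRNAs including that of Igf2, and L1td1 is an RNA-binding protein of pluripotent cells that derives from the first open reading frame of a LINE-1 element.

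Sites for let-7 were looked for in all 8 genes. The Lin28, Hmga2 and Igf2bp genes were already known let-7 targets, so the shares of genes with a match are given as a description. The 9 mature miRNAs of the mouse let-7 family in RefSeq (build GRCm38.p6) had the same seed, bases 2 to 8, which is shown in capitals for let-7a and for let-7d and miR-98, members that differ outside it.
mmu-let-7a-5p: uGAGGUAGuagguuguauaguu
mmu-let-7d-5p: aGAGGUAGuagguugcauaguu
mmu-miR-98-5p: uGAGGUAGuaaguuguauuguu

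The reverse complement of that seed, CTACCTC, was searched for on the mRNA strand of the longest annotated 3′ UTR of each gene (GENCODE M21). It was present in 7 of the 8 genes and in 9.02% of the 21024 genes with a 3′ UTR. Hmga2, Lin28b and Igf2bp1 each held 4 matches, Lin28a held 2, and Hmga1, Igf2bp2 and Igf2bp3 held 1 each. The share of genes with a match differed by 3′ UTR length, and the median length over all genes was 960 bases, so each gene was also set beside genes whose 3′ UTR was within 20% of its own length. As many matches as in the 3014 bases of Hmga2 were held by 2 of 2244 such genes (0.0891%), and the like shares were 0.158% for Lin28b (4445 bases), 0.178% for Igf2bp1 (6337 bases) and 2.02% for Lin28a (2775 bases). The single matches of Hmga1, Igf2bp2 and Igf2bp3 were less unusual, with at least 1 match in 8.05%, 12% and 13.2% of genes of like length. L1td1 held no match in its 364 bases, a length at which 2.89% of 1765 genes held one. The first match of each gene is printed 5′ to 3′ with the match in capitals, because the site is the textbook link between these mRNAs and let-7.
Hmga2: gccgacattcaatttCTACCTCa
Hmga1: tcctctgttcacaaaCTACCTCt
Lin28a: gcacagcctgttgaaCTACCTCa
Lin28b: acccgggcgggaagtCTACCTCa
Igf2bp1: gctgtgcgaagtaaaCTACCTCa
Igf2bp2: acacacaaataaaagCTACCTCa
Igf2bp3: tgcatttttactcaaCTACCTCa

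A match describes letters and is no measure of repression, and let-7 itself was not measured in these polyA libraries.

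Promoter windows from 250 bases before to 50 bases after an annotated start were found in RefSeq (GRCm38.p6) for 7 of the 8 genes, all but Igf2bp1. The ETS core CCGGAAG, the letters that GABP binds, was searched for on both strands and was in none of the 7, against 9.93% of the 27025 genes with such a window. The GC-box letters GGGCGG, a second motif chosen after the data were seen and searched for on both strands, were in the windows of 4 of the 7 genes and of 38.2% of all genes. They are in capitals, read here on the opposite strand as CCGCCC, in the Hmga2 window (chr10:120476420-120476719, minus strand), which has 1 match, and are absent from the L1td1 window (chr4:98726504-98726803, plus strand). Both windows are printed because these 2 genes were low in the same embryos.
Hmga2: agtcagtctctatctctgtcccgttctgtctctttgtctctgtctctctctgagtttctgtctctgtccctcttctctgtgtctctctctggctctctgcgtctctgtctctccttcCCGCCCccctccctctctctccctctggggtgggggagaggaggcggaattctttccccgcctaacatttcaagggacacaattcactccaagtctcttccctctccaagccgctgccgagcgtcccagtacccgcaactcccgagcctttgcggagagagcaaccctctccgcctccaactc
L1td1: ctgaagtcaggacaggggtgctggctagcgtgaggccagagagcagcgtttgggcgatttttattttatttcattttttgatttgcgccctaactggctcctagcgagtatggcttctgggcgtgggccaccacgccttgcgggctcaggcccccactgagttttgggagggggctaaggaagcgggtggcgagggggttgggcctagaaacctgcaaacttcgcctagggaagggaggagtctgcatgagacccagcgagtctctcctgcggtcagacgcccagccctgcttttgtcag

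The genes differed in level and in how widely they varied, as the plot of the 8 genes by embryo shows. Per length, in FPKM (counts scaled by exon length and library size), the mean level over 19 embryos was highest for L1td1 (23.2), Igf2bp2 (16.5) and Hmga2 (14.7). Igf2bp1 (6.60), Igf2bp3 (5.86) and Hmga1 (5.83) had lower mean FPKM, and Lin28a (1.96) and Lin28b (0.673) the lowest. The highest embryo exceeded the lowest by 27.3-fold in CPM for Lin28b, 24.3-fold for L1td1, 20.9-fold for Igf2bp3 and 15.0-fold for Hmga2. That ratio was 13.0 for Hmga1, 8.52 for Lin28a, 3.01 for Igf2bp1 and 3.22 for Igf2bp2. For L1td1 and Hmga2 the lowest embryo was an Alyref KO morula, by whose low values these genes were chosen. The 17 embryos other than the Alyref KO morulae ran from 24.7 to 151 CPM for L1td1 and from 56.2 to 192 CPM for Hmga2.

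**Figure D1:**
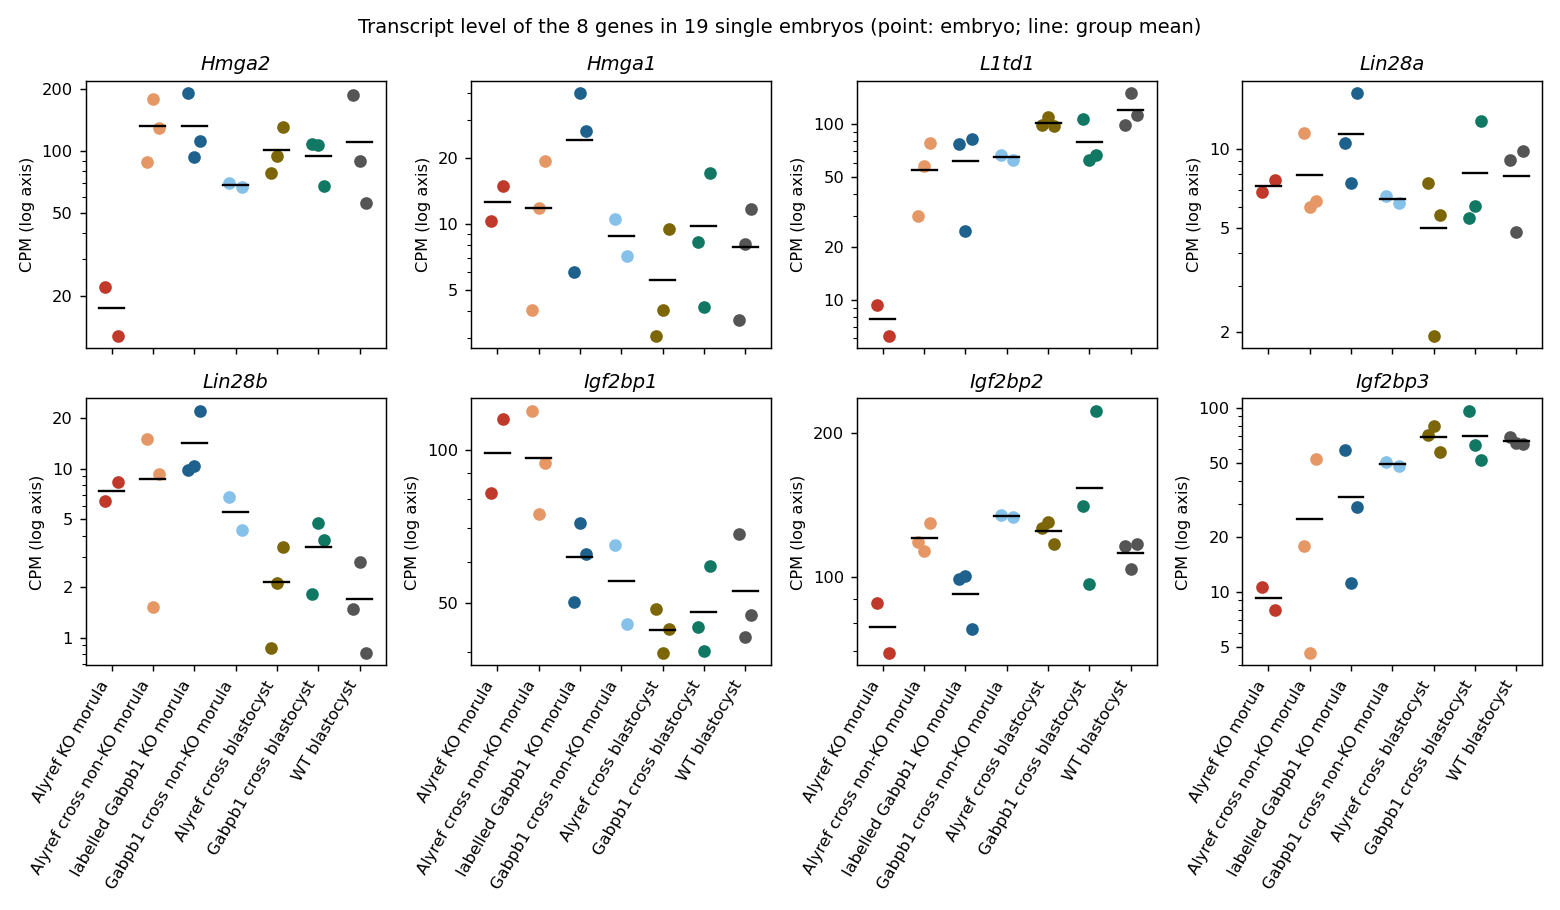
Level of each of the 8 genes in CPM (vertical axis, logarithmic, its range set for each gene) in the 7 groups; each point is an embryo and each line a group mean. The 2 Alyref KO morulae lie below the other 17 embryos for Hmga2 (12.7 and 21.9 CPM) and for L1td1 (6.20 and 9.37 CPM). The medians of Lin28b (8.83 and 2.11 CPM) and Igf2bp3 (23.4 and 64.8 CPM) differ between all morulae and all blastocysts. The morulae include the KO embryos, and no blastocyst was labelled KO.

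Hmga2, whose protein shapes chromatin in embryonic and growing tissue, lies at chr10:120361275-120476469 on the minus strand (ENSMUSG00000056758.14, mm10). Its level was 21.9 and 12.7 CPM in the Alyref KO morulae, from 166 and 191 counts. The 3 non-KO morulae of that cross had 89.2, 180 and 129 CPM. The KO embryos were the lowest 2 of all 19, and the other 17 ran from 56.2 to 192 CPM with a median of 95.0 CPM. On the log2 scale the KO morulae differed from the non-KO morulae by -2.95 (SE 0.52), a 7.70-fold lower level that ranked 371 from the lowest among the 18410 genes tested. The difference was between -3.38 and -2.62 with any 1 of the 5 embryos left out.

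L1td1 (chr4:98726734-98738480, plus strand, ENSMUSG00000087166.9) had 9.37 and 6.20 CPM in the Alyref KO morulae, from 71 and 93 counts. The non-KO morulae had 29.9, 57.5 and 78.2 CPM. As for Hmga2, the KO embryos were the lowest 2 of 19, and the other 17 ran from 24.7 to 151 CPM with a median of 78.2 CPM. The log2 difference was -2.84 (SE 0.51), or 7.14-fold lower, and it stayed between -3.15 and -2.50 with any 1 embryo left out. The 2 next lowest embryos for L1td1 were the morula labelled Gabpb1 KO 2 at 24.7 CPM and the Alyref cross non-KO morula 1 at 29.9 CPM, where Hmga2 was 94.2 and 89.2 CPM.

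Igf2bp2 was the other gene of the set with separate ranges in this comparison. Groups did not overlap for 3 of the 8 genes, all lower in KO, namely Hmga2, L1td1 and Igf2bp2, and 12.3% of all genes tested were lower without overlap. The call rule of adjusted p under 0.05 held for 0.228% of all genes in this comparison. Nothing is read about the set from either share, since Hmga2 and L1td1 were chosen by their low values here. Igf2bp2 had 88.2 and 69.3 CPM in KO morulae and 118, 113 and 129 CPM in non-KO morulae, a log2 difference of -0.61 (SE 0.26). The log2 differences of Lin28b (-0.22), Lin28a (-0.14), Igf2bp1 (0.03) and Hmga1 (0.10) were smaller than their SE. Igf2bp3 differed by -1.43 (SE 0.74), but by -0.28 without non-KO morula 3, which held 52.6 CPM where the other two had 17.8 and 4.64 CPM. The median over the 8 genes was -0.42, beside -0.04 over all genes tested, and it includes Hmga2 and L1td1, chosen by their low values here.

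**Figure D2:**
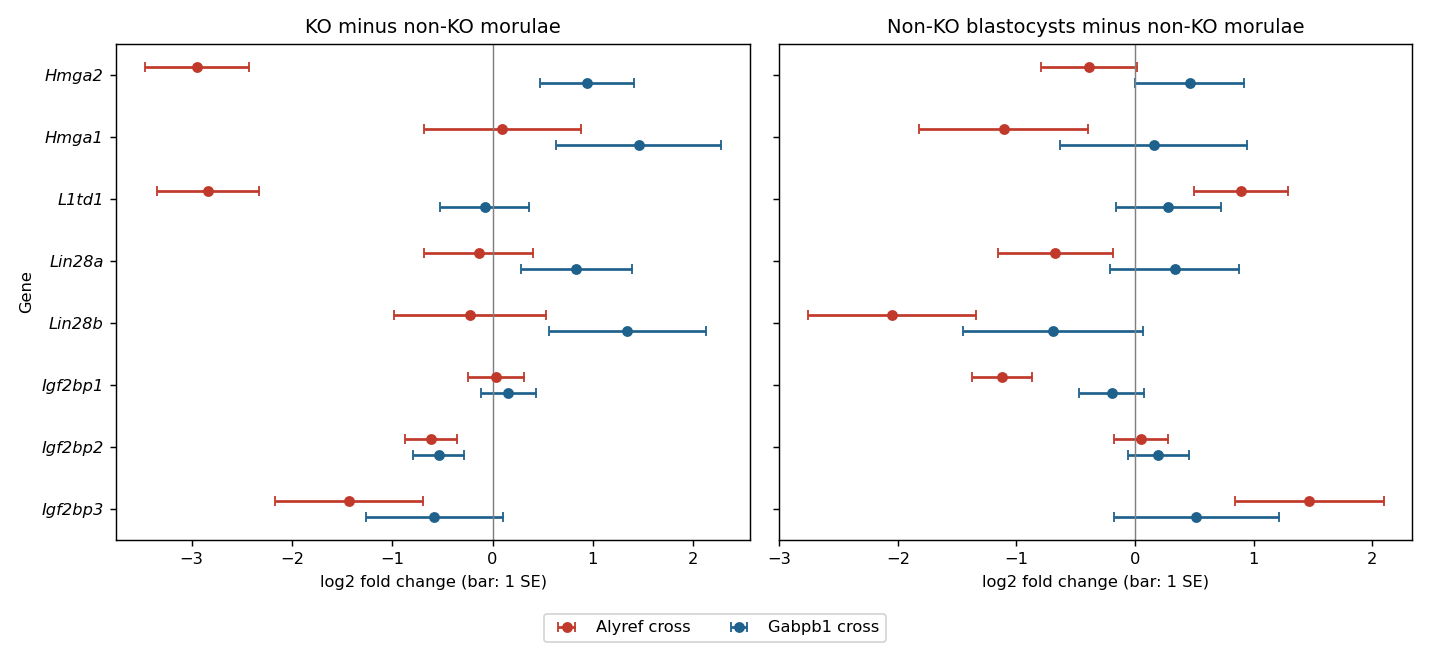
Log2 fold change of the 8 genes (horizontal axis, bar 1 SE) between KO and non-KO morulae (left) and between non-KO blastocysts and non-KO morulae (right), for the Alyref cross in red and the Gabpb1 cross in blue. In the left panel the red points of Hmga2 (-2.95) and L1td1 (-2.84) stand far below the rest; in the right panel Lin28b (-2.05) and Igf2bp1 (-1.12) are lowest in the Alyref cross.

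Marker genes of the embryo's cell types were read in the same morulae. The 14 epiblast and pluripotency markers summed to 1524 to 1712 CPM in Alyref KO morulae and to 1849 to 2003 CPM in non-KO morulae. These sums did not overlap, and 12.3% of single genes tested were lower without overlap. None of the 14 was at 0 in both KO embryos. Nanog (log2 difference 0.54) and Klf4 (0.57) were higher in KO. The median log2 difference of the 14 was -0.54 with 12 of 14 below 0. One of them passed the test and fell, Gdf3, a TGF-beta family ligand of pluripotent cells, with 5.31 ± 0.712 CPM (SD, n = 2) against 67.3 ± 40.5 CPM (SD, n = 3), a log2 fold change of -3.67 (SE 0.65, edgeR adjusted p = 0.0370). Gdf3 lost its call without KO morula 1 or 2 (adjusted p = 0.177 and 0.310) or without non-KO morula 1 (0.0908), after ERCC scaling (0.679) and with the 2 groups fitted alone (0.559), while its log2 fold change stayed between -3.95 and -3.53 in these fits. The 12 primitive endoderm markers summed to 595 to 627 CPM in KO and 643 to 836 CPM in non-KO morulae, also without overlap. Sox7 was at 0 in both KO embryos and Foxa2 at 0 in all 3 non-KO embryos. The 14 trophectoderm markers overlapped, at 998 to 1943 CPM against 805 to 2822 CPM. The part of these markers in the Hmga2 and L1td1 values was not tested. In whole embryos fewer cells of a type and less RNA per cell cannot be told apart.

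The other levels of Hmga2 and L1td1 were less clearly ordered by group. Ranked by group mean, Hmga2 had a gap between the Alyref KO morulae and the next group, and each further pair of neighbours overlapped, from the Gabpb1 cross non-KO morulae (68.9 CPM) to the Alyref cross non-KO morulae (133 CPM). L1td1 followed the same rule, with means from 55.2 CPM in Alyref cross non-KO morulae up to 121 CPM in WT blastocysts and overlap between all neighbours. L1td1 was 98.7, 110 and 98.3 CPM in the blastocysts of the Alyref cross, above all 3 non-KO morulae of that cross as were 19.6% of all genes, while Hmga2 (79.0, 95.0 and 131 CPM) overlapped them. In that cross the log2 differences between blastocysts and non-KO morulae were 0.89 (SE 0.40) for L1td1 and -0.39 (SE 0.41) for Hmga2. These carry no test, because the morulae are the ones against which the 2 genes were chosen.

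Among blastocysts Hmga2 spread most within the WT group. Its SD was 61.5% of the mean there, against 26.2% in the Alyref cross and 24.6% in the Gabpb1 cross. The WT blastocysts held 188, 89.6 and 56.2 CPM of Hmga2 and 99.2, 151 and 113 CPM of L1td1. The Gabpb1 cross blastocysts held 109, 108 and 67.8 CPM of Hmga2 and 107, 62.6 and 67.0 CPM of L1td1. The WT blastocyst highest for Hmga2 was the lowest of its group for L1td1. Over the 19 embryos the Pearson correlation of log2(CPM + 1) between the pair was 0.73 and Spearman's rho 0.29. The 2 KO embryos, by whose low values both genes were chosen, stand apart in the plot of L1td1 against Hmga2. The embryos share one library protocol and some share a cross, and no p is given.

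**Figure D3:**
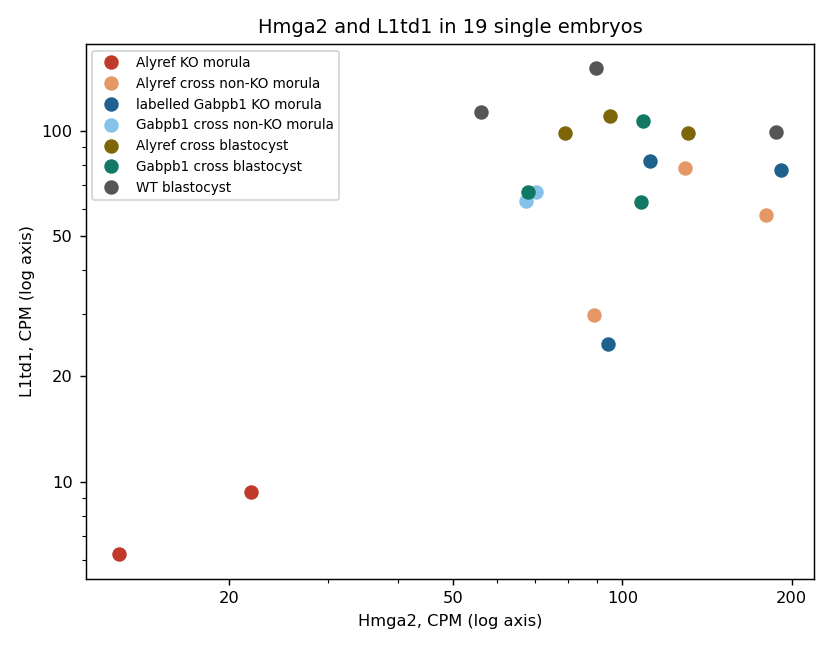
L1td1 (vertical axis) against Hmga2 (horizontal axis) in CPM, both axes logarithmic, with 1 point per embryo coloured by group. The Alyref KO morulae lie alone at the lower left, and the other 17 embryos form a cloud between 56.2 and 192 CPM of Hmga2 and 24.7 and 151 CPM of L1td1.

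The genes whose pattern over 19 embryos was most like that of Hmga2, among 11417 genes with a mean CPM of 5 or more, were Fbp2 (Pearson r 0.89), Cd2ap (0.86), Gm14698 (0.86), Etl4 (0.84) and Gm45236 (0.83). For L1td1 they were Plekhh1 (0.91), Atf7 (0.90), Ddah1 (0.90), Akap7 (0.89) and Eefsec (0.89). The 2 lists share no gene. The 19 embryos include the Alyref KO morulae, by whose low values Hmga2 and L1td1 were chosen, and no correlation was computed without them. The order depended on the measure. By Spearman's rho, Etl4 ranked 1 for Hmga2 (rho 0.86) and the other 4 ranked 21 to 96. For L1td1, Eefsec ranked 29 (rho 0.85), Akap7 78, Atf7 254, Plekhh1 681 and Ddah1 705. Of the other genes of the set, Igf2bp3 was most like L1td1 (r 0.78, rho 0.85) and Igf2bp1 most unlike it (r -0.71, rho -0.64).

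Labelled KO and non-KO morulae of the Gabpb1 cross gave 0 calls among the 8 genes, where 1.65% of all genes tested were. None of the 8 had an unadjusted p under 0.05, and DESeq2 and limma on FPKM called none. Hmga2 was 192, 94.2 and 112 CPM in the morulae labelled KO and 70.3 and 67.5 CPM in the non-KO morulae. All 3 were above both, with a log2 difference of 0.94 (SE 0.47, adjusted p = 0.289). L1td1 was 77.5, 24.7 and 82.1 CPM against 67.0 and 62.9 CPM, so 1 embryo lay below and 2 above the non-KO pair, and the log2 difference was -0.08 (95% interval -1.01 to 0.85, adjusted p = 0.945). Without the low embryo it was 0.28.

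Of the 8 genes, 3 (Hmga2, Lin28a and Lin28b) were higher without overlap in the morulae labelled Gabpb1 KO, and 15.8% of all genes tested were. Lin28a had 10.6, 7.40 and 16.4 CPM against 6.62 and 6.24 CPM, a log2 difference of 0.84 (SE 0.55, adjusted p = 0.430). Lin28b had 9.81, 10.4 and 22.1 CPM against 6.76 and 4.34 CPM, a log2 difference of 1.34 (SE 0.79, adjusted p = 0.372). Igf2bp2 was the gene lower without overlap, as were 16.4% of all genes. It had 99.1, 100.3 and 77.7 CPM against 135 and 133 CPM, a log2 difference of -0.54 (SE 0.25, adjusted p = 0.266). Trophectoderm markers summed to 409 to 3925 CPM in the morulae labelled KO and to 3701 to 5871 CPM in the non-KO morulae, and primitive endoderm markers to 305 to 780 CPM against 876 to 910 CPM. The trophectoderm median log2 difference was -1.48 with 13 of 14 below 0, the primitive endoderm median was -1.12 with 8 of 12 below 0, and the epiblast markers (1080 to 1500 against 869 to 1160 CPM) had a median of 0.40 with 2 of 14 below 0. No gene of the 3 lists was called. Their part in the values of the set was not tested.

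Hmga1, the broadly expressed relative of Hmga2, had a wide spread within groups. In morulae labelled Gabpb1 KO it had 6.03, 39.9 and 26.9 CPM, and in the non-KO morulae 10.5 and 7.15 CPM (log2 difference 1.46, SE 0.82, adjusted p = 0.356). Its level in Alyref KO morulae (10.3 and 14.9 CPM) lay inside that of the non-KO morulae (4.02, 11.9 and 19.5 CPM). Per length, Hmga1 made up 70.7% of the summed FPKM of the 2 Hmga genes in Alyref KO morulae, as a mean of 2 embryos at 61.5% and 79.9%. In the other 6 groups the mean share was 14.7% to 37.9%, and the highest single embryo reached 59.0%. The high share goes with the low Hmga2 values by which the set was chosen, so it is no separate result on Hmga1. Hmga1 (chr17:27556620-27563674, plus strand) cannot be separated from its near copy Hmga1b, whose counts stayed within a ratio of 0.811 to 1.20 of those of Hmga1 in all 19 embryos, so its value may hold reads of both.

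Lin28a (chr4:134003330-134018841, minus strand) and Lin28b (chr10:45376620-45486395, minus strand) were compared between stages in each cross, and neither passed the edgeR test. Lin28b ran from 1.52 to 22.1 CPM with a median of 8.83 CPM in the 10 morulae and from 0.807 to 4.74 CPM with a median of 2.11 CPM in the 9 blastocysts. The 10 morulae include the 2 Alyref KO and the 3 labelled Gabpb1 KO embryos, so these medians mix stage with the KO label. The highest Lin28b value was in a morula labelled Gabpb1 KO. In the Alyref cross it was 15.0, 1.52 and 9.32 CPM in non-KO morulae and 0.870, 2.11 and 3.42 CPM in blastocysts, so a single low morula overlapped the blastocysts. The log2 difference was -2.05 (SE 0.71), which missed the threshold in edgeR (adjusted p = 0.0653) and passed it in DESeq2 (adjusted p = 0.0213).

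In the Gabpb1 cross Lin28b was 6.76 and 4.34 CPM in non-KO morulae and 1.81, 4.74 and 3.79 CPM in blastocysts, a log2 difference of -0.69 (95% interval -2.30 to 0.92, adjusted p = 0.913). Lin28a had a median of 7.13 CPM in all morulae, KO embryos included, and 6.04 CPM in blastocysts. Its log2 difference was -0.67 (SE 0.49, adjusted p = 0.360) in the Alyref cross, from 11.6, 5.99 and 6.35 CPM to 7.45, 1.92 and 5.60 CPM, and -1.20 (adjusted p = 0.0446) with embryo weights. The stage differences of Lin28a and Lin28b were not tested against each other. Per length, the group mean share of Lin28a in the summed Lin28 FPKM was 65.2% to 72.7% in the 4 groups of morulae. It was 80.4% to 89.8% in the 3 groups of blastocysts. Single embryos overlapped, with shares of 60.7% to 89.9% in morulae and 67.4% to 96.5% in blastocysts.

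Igf2bp1 was the gene of the set that passed the test between stages. In the Alyref cross it was 119, 74.8 and 94.1 CPM in non-KO morulae and 48.5, 39.7 and 44.4 CPM in blastocysts. Every blastocyst was below every morula, as for 19.2% of all genes, and Igf2bp1 fell by 1.12 on the log2 scale (SE 0.25, edgeR adjusted p = 0.0141). It was 1 of 6 genes tested in this comparison, where 13.0% of all genes tested were called and 7.43% of all genes tested were called lower in blastocysts. The call was lost without non-KO morula 1 (adjusted p = 0.0626), blastocyst 1 (0.0505) or blastocyst 2 (0.0676), after ERCC scaling (0.166, log2 difference -1.49) and with the 2 groups fitted alone (0.0571). DESeq2 kept it at an adjusted p of 0.000474. In the same embryos the trophectoderm markers summed to 805 to 2822 CPM in morulae and 6181 to 9589 CPM in blastocysts, with 4 of 14 called higher and 1 lower, and the epiblast markers to 1849 to 2003 CPM and 1070 to 1310 CPM, with 4 of 14 called lower. Their part in the Igf2bp1 difference was not tested.

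In the Gabpb1 cross Igf2bp1 was 64.8 and 45.3 CPM in non-KO morulae and 44.8, 40.1 and 58.9 CPM in blastocysts, which overlapped, with a log2 difference of -0.20 (SE 0.28, adjusted p = 0.949). The difference between the stage effects of the crosses was 0.92 (SE 0.38, unadjusted p = 0.0261), with an adjusted p of 0.314 from edgeR. The non-KO morulae themselves differed between crosses by -0.80 (SE 0.28, adjusted p = 0.125), the Gabpb1 cross being lower without overlap, whereas the blastocysts of the crosses differed by 0.12 (SE 0.25, adjusted p = 1). Igf2bp1 in Alyref KO morulae (82.0 and 115 CPM) lay in the range of the non-KO morulae of the same cross.

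Igf2bp3 (chr6:49085223-49214957, minus strand) was not called between stages in either cross. It ran from 4.64 to 58.8 CPM with a median of 23.4 CPM in the 10 morulae and from 52.1 to 96.7 CPM with a median of 64.8 CPM in the 9 blastocysts. The 10 morulae include the 2 Alyref KO and the 3 labelled Gabpb1 KO embryos, and no blastocyst was labelled KO. These medians therefore mix stage with the KO label. In the Alyref cross it was 17.8, 4.64 and 52.6 CPM in non-KO morulae and 71.1, 79.7 and 57.4 CPM in blastocysts. Blastocysts were higher without overlap, as were 19.6% of all genes, but the log2 difference of 1.47 (SE 0.63) did not pass (adjusted p = 0.123). Without non-KO morula 3 it was 2.62 and was called (adjusted p = 0.00747).

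In the Gabpb1 cross Igf2bp3 was 50.5 and 48.1 CPM in non-KO morulae and 96.7, 62.9 and 52.1 CPM in blastocysts, also without overlap (11.4% of all genes were higher in that way), with a log2 difference of 0.52 (95% interval -0.96 to 1.99, adjusted p = 0.941) that turned to -0.27 with ERCC scaling. The morulae labelled Gabpb1 KO spread over 58.8, 11.2 and 29.0 CPM, a log2 difference of -0.58 from the non-KO pair (SE 0.68, adjusted p = 0.675). The Alyref KO morulae, at 10.7 and 7.94 CPM, were the third and the second lowest of all 19 embryos. Igf2bp3 shares 1529 exon bases, 18.7% of its exons, with Malsu1 on the opposite strand. Malsu1 had 52.6 to 92.3 CPM, its correlation with Igf2bp3 over the 19 embryos was 0.79, and its part in the Igf2bp3 counts was not tested.

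Igf2bp2 (chr16:22059009-22163299, minus strand), the paralog that stays on in adult tissues as well, was not called between stages in either cross. Its log2 difference between blastocysts and non-KO morulae was 0.05 (95% interval -0.44 to 0.54, adjusted p = 0.909) in the Alyref cross and 0.20 (95% interval -0.35 to 0.74, adjusted p = 0.939) in the Gabpb1 cross, and -0.28 and -0.75 with ERCC scaling. The blastocysts of the Alyref cross had 127, 130 and 117 CPM and those of WT parents 116, 104 and 117 CPM. The Gabpb1 cross blastocysts spread further, with 141, 96.9 and 223 CPM. The 3 lowest embryos of all 19 for Igf2bp2 were both Alyref KO morulae and the morula labelled Gabpb1 KO 3.

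Per length, Igf2bp2 had the highest mean FPKM of the 3 paralogs in each of the 7 groups. Igf2bp1 was second in 3 of the 4 groups of morulae. Igf2bp3 was second in the 3 groups of blastocysts and, with 6.05 against 5.68 FPKM, in the Gabpb1 cross non-KO morulae. Igf2bp2 took 49.5% to 61.7% of the summed Igf2bp FPKM as a group mean. Igf2bp1 took 45.4% in Alyref KO morulae and 33.3% in non-KO morulae of the Alyref cross. Its share was 27.7% in morulae labelled Gabpb1 KO, 18.5% in Gabpb1 cross non-KO morulae, and 14.3% to 18.4% in the 3 groups of blastocysts. Igf2bp3 took 5.12% in Alyref KO morulae, 9.38% in Alyref cross non-KO morulae and 25.9% to 27.7% in blastocysts. In the Gabpb1 cross the Igf2bp3 share was 16.8% in morulae labelled KO and 19.8% in non-KO morulae. Single embryos overlapped between stages. The Igf2bp3 share reached 27.4% in a morula labelled Gabpb1 KO and was as low as 14.6% in a Gabpb1 cross blastocyst. In 1 of the 2 Alyref KO morulae Igf2bp1 exceeded Igf2bp2, with shares of 52.6% and 43.1%.

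**Figure D4:**
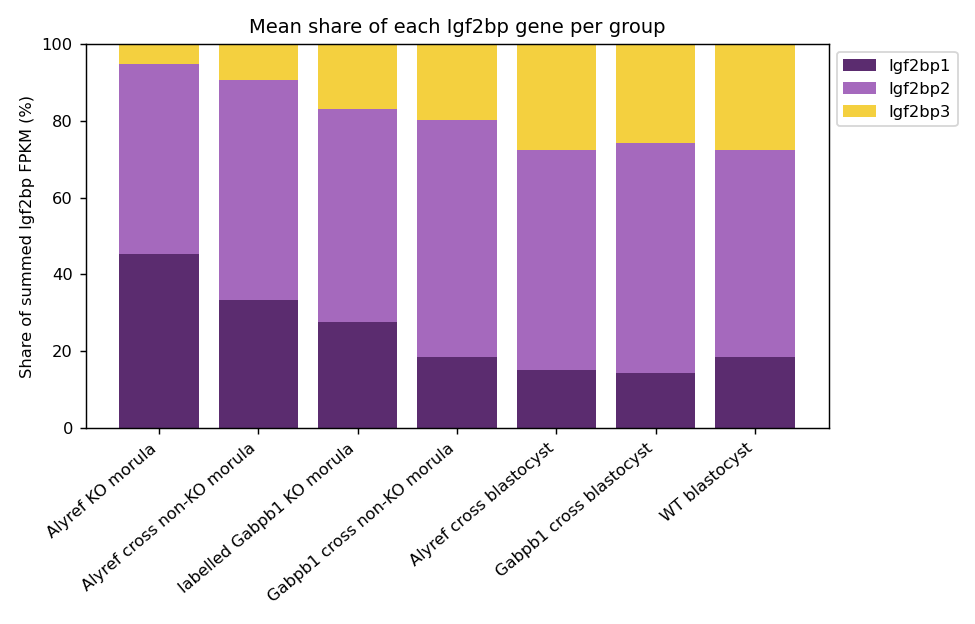
Mean share of Igf2bp1, Igf2bp2 and Igf2bp3 in their summed FPKM (vertical axis, percent) in each of the 7 groups; the bars start at 0 and add to 100. The mean Igf2bp3 share is 5.12% in Alyref KO morulae, 19.8% in Gabpb1 cross non-KO morulae and 25.9% to 27.7% in blastocysts. The mean Igf2bp1 share is 45.4%, 18.5% and 14.3% to 18.4% in the same order.

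The remaining comparisons gave no call in the set. Between stages in the Gabpb1 cross edgeR called none of the 8 genes (adjusted p 0.896 to 0.994) and 0% of all genes, with 1237 genes at an unadjusted p under 0.05 and 57 called by DESeq2. Comparing non-KO morulae across the 2 crosses, none of the 6 genes tested was called against 1.86% of all genes, and 1 of them, Igf2bp1, had an unadjusted p under 0.05 (0.0122). Hmga2 and Igf2bp1 were lower without overlap in the Gabpb1 cross, as were 18.2% of all genes, and Igf2bp2 was higher without overlap, as were 17.9%. The log2 difference was -0.95 for Hmga2 and 0.24 for L1td1, both given without a test. Among blastocysts, edgeR called 0% of all genes in any of the 3 comparisons, and the set had 0 of 8 each time. There, 541, 1123 and 646 genes had an unadjusted p under 0.05, and DESeq2 called 14, 41 and 16, for the Alyref cross against WT, the Gabpb1 cross against WT and the Gabpb1 against the Alyref cross. The log2 differences of the 8 genes lay between -0.66 and 1.01 in these comparisons. No gene of the set had separate ranges, which 12.2%, 12.8% and 13.0% of all genes had in the same order.

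Genes that work with the set were counted from lists. Of 19 let-7 processing genes and Lin28 partners that passed the filter (among them Drosha, Dicer1 and the terminal uridylyltransferases), none was called in either KO comparison. Their median log2 difference was -0.12 in Alyref KO morulae and 0.26 in morulae labelled Gabpb1 KO, beside -0.04 and 0.06 over all genes. Of 15 textbook let-7 targets such as Mycn and Hras none was called in either, with medians of 0.12 and -0.09, and of 6 genes of the insulin-like growth factor axis none was called. Among 23 genes of mRNP assembly 1 rose in morulae labelled Gabpb1 KO, Pabpc4, a cytoplasmic poly(A)-binding protein, with 131 ± 3.10 CPM (SD, n = 3) against 36.9 ± 6.05 CPM (SD, n = 2) and a log2 fold change of 1.82 (SE 0.35, edgeR adjusted p = 0.0222). Its call was lost without labelled KO morula 2 (0.0501), without either non-KO morula (0.0706 and 0.221), after ERCC scaling (0.505) and with the groups fitted alone (0.319).

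Of 12 other high mobility group genes none was called in either KO comparison, and their median was -0.30 in Alyref KO morulae with 10 of 12 below 0. Between stages in the Alyref cross, 3 let-7 processing genes and Lin28 partners fell in blastocysts, Zcchc11, Syncrip and Ago2, and none of the 19 rose. There 3 let-7 targets were called, Hras, Mycn and E2f6, of which 2 rose and 1 fell, beside 13.0% of all genes called.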

How the data were processed

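PolyA RNA was measured in 19 single embryos of 7 groups taken from the labels. The authors deposited 1 table in which every embryo has its column, and although its name announces FPKM the deposited values are raw counts per gene, whole numbers with totals that differ between embryos. The tools named, per the submitters' processing notes, are Trimmomatic, Trim Galore, cutadapt, STAR and featureCounts with the build mm10; their versions, order and strand setting are not given in the sources used here. Besides 53379 gene rows there are 92 for ERCC spike-ins, which stayed out of library sizes.

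FPKM was computed here from counts and the deposited exon length. Testing was limited to genes with an FPKM of at least 1 in 2 or more embryos. CPM used TMM-scaled totals, except for Malsu1 and its correlation with Igf2bp3, which used gene totals without that scaling. edgeR 4.0.16 (R 4.3.3) fitted all 19 embryos together, with 1 mean per group, and its quasi-likelihood test was used. Benjamini-Hochberg adjustment ran over 18410 genes, and a gene was called under 0.05; unless another tool is named, every adjusted p comes from this fit, and SE is the size of the log2 fold change over the square root of F. Intervals are 95% from the same fit. The plan allowed for counts or FPKM, and the count test was used.

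The 8 genes and the gene lists were chosen with earlier results of these data known. Named besides them are Alyref and Gabpb1, list genes called in a KO comparison, and the 5 genes most correlated with Hmga2 and with L1td1 in log2(CPM + 1); list genes named between stages were named after their values were seen. No p is given for the 8 genes in the Alyref KO comparison, or for Hmga2 and L1td1 where the same non-KO morulae recur. Alternatives were DESeq2 1.42.0 (test and size factors), ERCC scaling, other filters, limma 3.58.1 on log2(FPKM + 1) or log2(FPKM + 0.1), embryo weights, a replicate block, thinning to the smallest library, the compared groups alone, and each embryo left out. The scripts were tested on simulated data. Total counts of 7.49 M to 31.5 M limit precision for low genes such as Lin28b, which had as few as 12 counts; counts after PCR are not independent molecules. Sequences come from RefSeq and from the GENCODE M21 annotation of GRCm38; proteins were not analysed here.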

Additional observations from a re-analysis of the deposited data

Results flagged for a closer look

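Hmga2 values lay in opposite directions in the 2 KO comparisons. Each of the 2 Alyref KO morulae was below all 3 non-KO morulae of its cross (log2 difference -2.95), as were 12.3% of all genes tested, and each of the 3 morulae labelled Gabpb1 KO was above both non-KO morulae of its cross (log2 difference 0.94, edgeR adjusted p = 0.289), as were 15.8% of all genes tested. The difference between the 2 effects was not tested, because Hmga2 was chosen on the Alyref comparison.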

How the results depend on the processing

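Of 638 refits of single genes of the set, 591 were counted as the same. For tested values that means the same direction and call. For untested values it means a move smaller than the spread between embryos, whatever the direction. Of the tested values, 25 changed direction, 10 gained and 5 lost a call. Another 7 untested values moved by more than the spread between embryos. The cause was not tested. The median over the set in Alyref KO morulae was -0.98 with an FPKM filter of 5, which removes genes, and -0.67 to -0.28 with an embryo left out. The count of genes of the set called between stages in the Alyref cross, 1, became 0 with ERCC scaling or the groups alone, 2 with DESeq2 or either limma fit, 4 with embryo weights, and 0 to 2 with an embryo left out. Between non-KO morulae the count of 0 became 2 with embryo weights and 0 to 1 with an embryo left out (1, Igf2bp3, without Alyref cross non-KO morula 3). The replicate numbers were not treated as pairs, and the labels name no pairing. Deviations from the group mean correlated at -0.20 to 0.17 between same-numbered embryos over 8 comparisons, in none of which every pair exceeded 0.1. With groups of 2 or 3 embryos these values cannot decide whether the numbers mark pairs. With a replicate block Hmga1 turned to -0.41 between stages in the Gabpb1 cross and to 0.30 between non-KO morulae, and no call in the set changed. ERCC scaling moved the median of all genes by -0.46 (Gabpb1 KO), -0.30 (stages, Alyref cross), -0.88 (stages, Gabpb1 cross), 0.43 (non-KO morulae), 0.16 (Alyref cross against WT blastocysts) and -0.14 (blastocysts of the crosses), and turned Igf2bp1 to -0.43 in morulae labelled Gabpb1 KO, Igf2bp2 to -0.28 between stages in the Alyref cross and Lin28a to 0.091 between non-KO morulae. Between stages in the Gabpb1 cross it turned Hmga2 to -0.37, Hmga1 to -0.84, L1td1 to -0.53, Lin28a to -0.68, Igf2bp2 to -0.75 and Igf2bp3 to -0.27, where Hmga1 was also -0.022 and -0.064 in the limma fits. Hmga1 was 0.67 between non-KO morulae with embryo weights. With an embryo left out, the tested values that changed direction ranged from -0.077 to 0.44 (Igf2bp1) and -0.37 to 0.28 (L1td1) for labelled Gabpb1 KO. Between stages in the Gabpb1 cross they ranged from -0.43 to 0.085 (Igf2bp1), -0.51 to 0.51 (Hmga1, also -0.094), -0.0033 to 0.42 (L1td1), -0.16 to 0.55 (Lin28a) and -0.17 to 0.43 (Igf2bp2). Between non-KO morulae they ranged from -0.45 to 0.060 (Lin28a), -1.09 to 0.024 (Lin28b) and -0.83 to 0.16 (Hmga1). None of these reversed values was a call. Untested values also changed direction. In the Alyref KO comparison they ranged, with an embryo left out, from -0.33 to 0.67 (Hmga1), -0.25 to 0.26 (Igf2bp1), -0.29 to 0.22 (Lin28a) and -0.70 to 0.43 (Lin28b). Other settings there turned Hmga1 to -0.10 (thinning), Igf2bp1 to -0.15 (embryo weights), Lin28a to 0.091 (replicate block) and Lin28b to 0.21 (limma). L1td1 between non-KO morulae ranged from -0.063 to 0.57. Counts over all genes moved by over 1.5 times in 64 of 132 refits: the 42 genes of the Alyref KO comparison ranged from 0 (ERCC scaling) to 841 (embryo weights), the 303 of labelled Gabpb1 KO from 0 (groups alone) to 1283 (DESeq2), the 2402 between stages in the Alyref cross from 24 (groups alone) to 7262 (embryo weights), the 342 between non-KO morulae from 0 (groups alone) to 2712 (embryo weights), and counts of 0 reached 57 (stages, Gabpb1 cross, DESeq2), 41 (Alyref cross against WT, weights), 41 (Gabpb1 cross against WT, DESeq2) and 16 (blastocysts of the crosses, DESeq2).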
